A study of Mus musculus with 6 samples.

Results

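Galectins, a family of proteins that bind β-galactoside sugars, were compared between resting bone marrow-derived macrophages (BMDMs) of control and CITED2-deficient mice. The 6 genes described are those whose row in the deposited expression table carries the symbol *Lgals1*, *Lgals3*, *Lgals3bp*, *Lgals4*, *Lgals8* or *Lgals9*, chosen by name from 22248 listed genes. CITED2 is a transcriptional co-regulator. The controls were Lyz2Cre mice and the CITED2-deficient mice were Lyz2Cre Cited2 Fl Fl, so both carried the Cre recombinase driven by the myeloid gene *Lyz2*, and they differed by the floxed *Cited2* alleles. Both groups were of the C57BL/6 strain, and the labels give postnatal week 10 for every sample, while the methods of the study state a younger age. Macrophages were grown from bone marrow ex vivo and left unstimulated, and total RNA was sequenced from 3 libraries per group. Expression is given as FPKM, the number of fragments of a gene divided by its transcript length and by the mapped fragments of the library. Levels of different genes can be set side by side only as far as that length fits the transcripts made.

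Galectins are made in the cytosol and leave the cell without a signal peptide. Outside the cell they bind and cross-link galactose-containing glycans of surface and matrix glycoproteins, and inside it some of them bind glycans that are exposed when a lysosome or phagosome membrane breaks. Galectin-1, encoded by *Lgals1*, has a single sugar-binding domain and forms dimers, galectin-3 joins such a domain to a flexible tail and assembles into larger complexes, and galectins 4, 8 and 9 carry a pair of different sugar-binding domains on one chain. *Lgals3bp* encodes no galectin but a secreted, heavily glycosylated scavenger receptor cysteine-rich protein that galectin-3 binds. Galectin-3 is the classical macrophage surface antigen Mac-2.

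The upstream sequences of *Lgals9* and *Lgals3bp* are shown because these genes changed most among the 5 tested. They run 5′ to 3′ on the strand of the gene, from 250 bases before to 50 bases after the RefSeq start site, in the build GRCm38.p6. The window of *Lgals9* is chr11:78984875-78985174 and that of *Lgals3bp* is chr11:118401910-118402209, both on the minus strand. Capitals in *Lgals9* mark matches to the core of the interferon-stimulated response element (GAAA, any 2 letters and again GAAA), which lie on the opposite strand and so read here as its reverse complement. Capitals in *Lgals3bp* mark the stretch nearest to that core.
Lgals9: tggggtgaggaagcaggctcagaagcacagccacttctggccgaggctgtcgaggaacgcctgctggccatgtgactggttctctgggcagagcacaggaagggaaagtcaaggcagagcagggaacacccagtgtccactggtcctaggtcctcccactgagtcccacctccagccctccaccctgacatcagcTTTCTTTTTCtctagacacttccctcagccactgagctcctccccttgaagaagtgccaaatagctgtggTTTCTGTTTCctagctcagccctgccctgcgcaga
Lgals3bp: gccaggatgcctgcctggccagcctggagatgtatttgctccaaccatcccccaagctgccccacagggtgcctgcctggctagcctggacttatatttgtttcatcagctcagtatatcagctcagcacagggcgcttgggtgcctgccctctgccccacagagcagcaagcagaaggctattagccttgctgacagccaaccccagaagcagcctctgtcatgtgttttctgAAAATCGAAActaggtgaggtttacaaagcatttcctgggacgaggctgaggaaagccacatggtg
The 2 matches in *Lgals9* lay at bases -55 to -46 and 15 to 24 relative to the start site. Both strands were searched, and 3.44% of 32851 mouse promoters of the same length held this core, while 0.225% held 2 or more matches. *Lgals3bp* held no full match, and its marked stretch, at bases -16 to -7, differed from the core in 1 of the 8 fixed letters. This comparison was made after the sequence was seen, and 35.4% of promoters came within 1 letter of the core. The promoters of *Lgals3*, *Lgals4* and *Lgals8* had no full match and came within 2 fixed letters of the core, as 87.9% of promoters did. The RefSeq window of *Lgals4* ends before the GENCODE start of the gene, so the start sites of the annotations differ there. The gamma-activated sequence, TTCNNNGAA, which reads alike on both strands and can share its GAA with the former core, was found in 8.30% of promoters. The core of the hypoxia response element, ACGTG, was found in 19.6%. Neither stood in the 5 windows examined, and no promoter window of *Lgals1* was analysed here. A match is a description of the letters and not a measured binding site.

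Sequencing depth, recovered from the steps between FPKM values, was 17289287 to 18952077 fragments in control libraries and 22583994 to 26100408 in CITED2-deficient libraries, and the ratio of the means was 1.34. Counting error therefore differs between the groups along with genotype. *Cited2* itself was at 71.7, 79.3 and 75.5 FPKM in control BMDMs and at 9.27, 7.22 and 7.53 FPKM in CITED2-deficient BMDMs, as labelled. Macrophage markers summed to 5624 to 5694 FPKM in control and 5287 to 5367 FPKM in CITED2-deficient BMDMs. *Lyz2*, the gene that drives the Cre and one of these markers, was listed at 31.3 FPKM in control and 9.75 FPKM in CITED2-deficient BMDMs. This level is uncertain because the close paralogue *Lyz1* may share its reads. *Lyz1* was also lower, listed at 229 FPKM in control and 45.5 FPKM in CITED2-deficient BMDMs. Of the 8 macrophage markers, 1 was called higher (*Fcgr1*, from 172 to 482 FPKM), 5 lower and 2 not. CITED2-deficient library 1 stood apart. Its fibroblast or stromal markers summed to 714 FPKM, beside 247 and 248 FPKM in the other CITED2-deficient libraries and 60.6 to 74.5 FPKM in control BMDMs. None of the 10 fibroblast markers was at 0, and all 8 that passed the filter on low values were higher in CITED2-deficient BMDMs. Neutrophil lineage markers summed to 727 to 795 FPKM in control and 658 to 777 FPKM in CITED2-deficient BMDMs, and of 7 tested 1 was higher (*Ltf*, from 94.3 to 177 FPKM) and 5 were lower, among them *Mpo*, from 16.2 to 1.95 FPKM, and *Elane*, from 12.4 to 2.15 FPKM. Erythroid and megakaryocyte markers summed to 315 to 344 FPKM in control and 78.2 to 89.1 FPKM in CITED2-deficient BMDMs. Most of that sum came from the platelet gene *Pf4*, which was called lower, from 320 to 75.4 FPKM. Of 3 tested, 1 was lower and 2 were higher, *Itga2b* from 2.90 to 4.08 FPKM and *Ppbp* from 2.26 to 4.17 FPKM. Dendritic cell, B cell and T and NK cell markers summed to at most 26.0, 3.00 and 0.866 FPKM in any library. Of 4 dendritic cell markers 1 was tested, *Itgax*, and it was called higher, from 17.7 to 22.8 FPKM. The 1 B cell marker tested was not called, and no T and NK cell marker passed the filter. The part of these cell types in the galectin levels was not tested. In bulk RNA, fewer cells of a type and less RNA per cell cannot be told apart. Differences were tested with limma on log2(FPKM + 1) over the 11687 genes with a mean of at least 1 FPKM, and a gene was called at an adjusted p under 0.05, with no fold threshold. At this threshold 5994 genes, or 51.3%, were called, 16.7% higher and 34.6% lower. The median of all tested genes lay at -0.10 on the log2 scale. After median-ratio scaling, which removes that shift, 23.1% were called higher and 21.3% lower, and the share of calls that were higher moved from 32.5% to 52.0%.

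Of the 6 genes, 5 passed the filter on low values, and all 5 were called. Of all tested genes 51.3% were called, 16.7% higher and 34.6% lower. *Lgals3bp*, *Lgals9*, *Lgals8* and *Lgals3* were higher in CITED2-deficient BMDMs, and *Lgals1* was lower. The differences ran from 1.86 on the log2 scale for *Lgals3bp* to -0.44 for *Lgals1*, with a median of 0.46. The same 4 genes were called higher and the same gene lower after median-ratio scaling. *Lgals4* was below the filter. In all 6 genes the 3 libraries of one group lay entirely above the 3 of the other, as they did for 59.9% of tested genes, and with 3 libraries against 3 an exact permutation test of a single gene cannot go below 0.1 (two-sided).

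**Figure D1:**
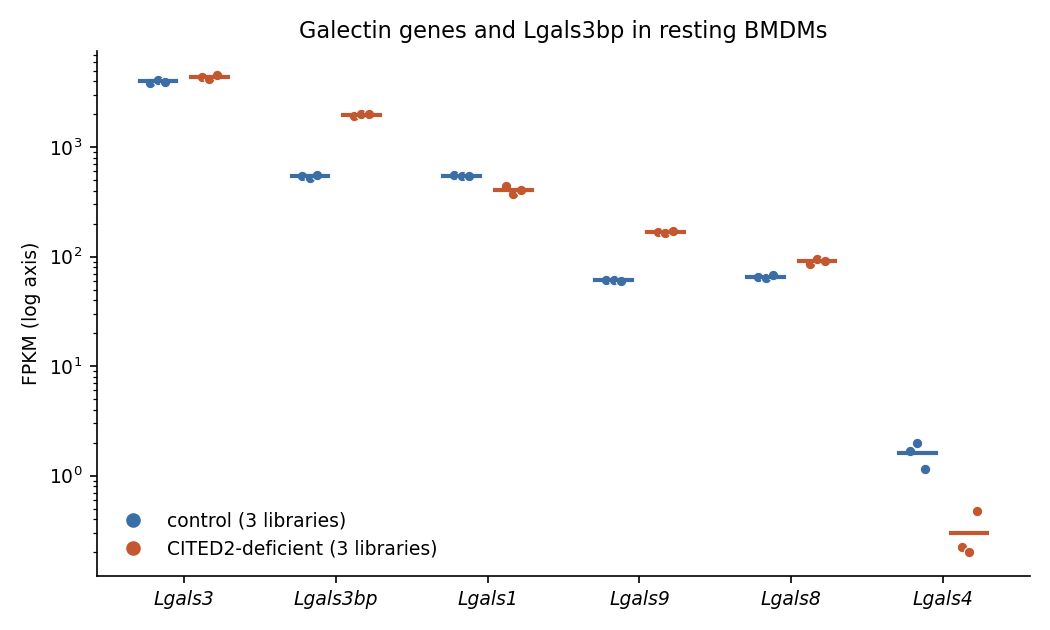
FPKM of the 6 genes in each library, on a log axis, with control libraries in blue and CITED2-deficient libraries in orange and a bar at each group's mean. *Lgals3bp* went from 542 to 1965 FPKM and *Lgals9* from 61.1 to 167 FPKM, while *Lgals3* went from 3972 to 4373 FPKM.

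Among the 5 tested genes, the secreted partner of galectin-3 had the largest difference. *Lgals3bp* (ENSMUSG00000033880, chromosome 11, 118392751 to 118402092, minus strand) was at 540.5, 525.2 and 558.9 FPKM in control BMDMs and at 1915, 1993 and 1986 FPKM in CITED2-deficient BMDMs. The groups were far apart, and each was tight. The mean went from 542 ± 16.9 FPKM (SD, n = 3) to 1965 ± 43.4 FPKM (SD, n = 3), a 3.63-fold increase, or 1.86 on the log2 scale (SE 0.03, limma adjusted p = 7.22e-10). Its level was ranked 143 to 159 among all listed genes in control BMDMs and 27 in each CITED2-deficient library. By size of increase it was ranked 112 among 11687 tested genes. Without CITED2-deficient library 1 the difference was 1.88.

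*Lgals9* (ENSMUSG00000001123, chromosome 11, 78962974 to 78984946, minus strand) encodes galectin-9, a ligand of the inhibitory receptor TIM-3. Its levels were 61.3, 61.6 and 60.3 FPKM in control BMDMs and 167.4, 163.8 and 169.9 FPKM in CITED2-deficient BMDMs. No control library came near the CITED2-deficient range. The mean went from 61.1 ± 0.687 FPKM (SD, n = 3) to 167 ± 3.06 FPKM (SD, n = 3), a 2.74-fold increase, or 1.44 on the log2 scale (SE 0.03, limma adjusted p = 1.49e-09). These values rest on 1309 to 1426 fragments per control library and 4550 to 5454 per CITED2-deficient library. By size of increase *Lgals9* was ranked 215 among tested genes, and without CITED2-deficient library 1 the difference was again 1.44.

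A list of 10 interferon-induced genes differed in the same direction as *Lgals3bp* and *Lgals9*. It was given as values that move with a member and chosen with earlier results of these data known, so the shared direction was no test. The summed level of these genes was 265 to 299 FPKM in control and 2582 to 2928 FPKM in CITED2-deficient BMDMs. Of the list, 10 of 10 were called higher, with a median difference of 3.27 on the log2 scale. Of all tested genes 16.7% were called higher and 34.6% lower. The differences of *Lgals3bp* and *Lgals9* were smaller than that median. The part of interferon response in either gene was not tested.

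*Lgals8* (ENSMUSG00000057554, chromosome 13, 12439415 to 12464944, minus strand) encodes galectin-8, which binds glycans on ruptured vesicles and recruits autophagy receptors to them. It was at 65.7, 63.2 and 68.1 FPKM in control BMDMs and at 86.4, 95.2 and 91.4 FPKM in CITED2-deficient BMDMs. The step between the groups was larger than the spread within either. The mean went from 65.7 ± 2.42 FPKM (SD, n = 3) to 91.0 ± 4.41 FPKM (SD, n = 3), a 1.39-fold increase, or 0.46 on the log2 scale (SE 0.04, limma adjusted p = 3.16e-05). Its difference was larger in size than that of 80.4% of tested genes, and it was 0.57 after median-ratio scaling and 0.50 without CITED2-deficient library 1.

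*Lgals1* (ENSMUSG00000068220, chromosome 15, 78926725 to 78930465, plus strand) encodes galectin-1, known for dampening immune responses. It was at 553.2, 542.4 and 548.2 FPKM in control BMDMs and at 439.6, 371.8 and 401.9 FPKM in CITED2-deficient BMDMs. The control libraries were nearly level, and the CITED2-deficient libraries were lower and more spread. The mean went from 548 ± 5.41 FPKM (SD, n = 3) to 404 ± 34.0 FPKM (SD, n = 3), 0.738 of the control level, or -0.44 on the log2 scale (SE 0.05, limma adjusted p = 0.000122). After median-ratio scaling the difference was -0.34. The highest CITED2-deficient value was that of library 1, the library with the most fibroblast marker RNA, and without it the difference was -0.50. The part of fibroblast RNA in the level of *Lgals1* was not tested. The annotation also holds 2 processed pseudogenes of *Lgals1*, so reads that the counting could split between near-identical copies make this level uncertain.

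*Lgals3* (ENSMUSG00000050335, chromosome 14, 47367751 to 47386160, plus strand) had the highest level of the 6 genes in every library and was ranked 12 to 15 among all listed genes. It was at 3851, 4131 and 3936 FPKM in control BMDMs and at 4340, 4186 and 4591 FPKM in CITED2-deficient BMDMs. The highest control and the lowest CITED2-deficient library were close to each other. The mean went from 3972 ± 143 FPKM (SD, n = 3) to 4373 ± 204 FPKM (SD, n = 3), a 1.10-fold increase, or 0.14 on the log2 scale (SE 0.04, limma adjusted p = 0.0176). This difference was larger in size than that of 36.3% of tested genes. The call was lost without control library 1 (0.12, limma adjusted p = 0.0719), without control library 3 (0.13, limma adjusted p = 0.0635) and without CITED2-deficient library 3 (0.10, limma adjusted p = 0.0581). Without CITED2-deficient library 1 it was kept (0.14, limma adjusted p = 0.0297). It was lost with quantile normalization, with which the difference was 0.02 (limma adjusted p = 0.813).

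**Figure D2:**
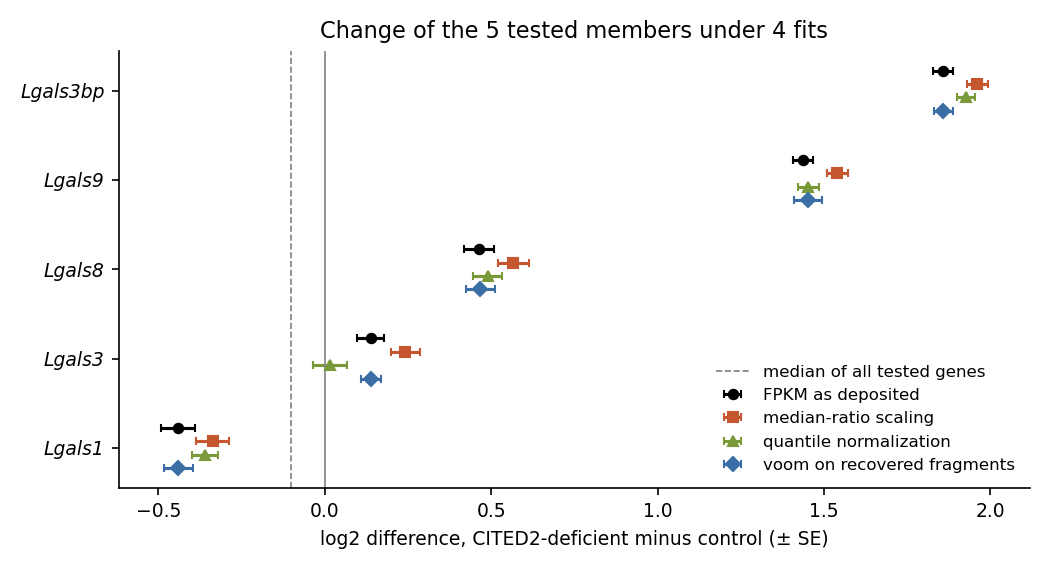
Log2 difference of each tested gene, CITED2-deficient minus control, with its SE as a bar, in the deposited FPKM, after median-ratio scaling, after quantile normalization and from recovered fragments. *Lgals3bp*, *Lgals9* and *Lgals8* lay to the right of 0 and *Lgals1* to the left in all 4, whereas *Lgals3* ranged from 0.02 to 0.24, and the dashed line is the median of all tested genes at -0.10.

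*Lgals4* (ENSMUSG00000053964, chromosome 7, 28833854 to 28841708, plus strand) encodes a galectin of the gut epithelium and was near the limit of detection. It was at 1.68, 1.97 and 1.14 FPKM in control BMDMs and at 0.224, 0.201 and 0.479 FPKM in CITED2-deficient BMDMs. These levels come from 28, 30 and 19 fragments in control libraries and 5, 4 and 11 fragments in the deeper CITED2-deficient libraries. The mean control level was 5.30 times the CITED2-deficient level, and the groups did not overlap. With a mean of 0.950 FPKM over the 6 libraries the gene was not among those tested, and the exact permutation test gave p = 0.1, the smallest it can give. When all 22248 genes were fitted without a filter, the difference was -0.99 on the log2(FPKM + 1) scale, which understates the change of low genes (SE 0.15, limma adjusted p = 0.00392), and it was -2.36 from recovered fragments (SE 0.49, limma-voom adjusted p = 0.000533). The epithelial markers *Epcam*, *Cdh1*, *Krt8* and *Krt18* were also near 0 and summed to 0.20 to 0.503 FPKM in control and at most 0.130 FPKM in CITED2-deficient BMDMs. *Krt8* and *Krt18* had 1 to 9 fragments in each control library and 0 in each CITED2-deficient library, the direction of *Lgals4*. *Epcam* had 0 fragments in each control library and 3, 0 and 3 in CITED2-deficient libraries, and *Cdh1* had at most 2 in any library. The part of epithelial RNA in the level of *Lgals4* was not tested.

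Set side by side, the levels fell into another order in the CITED2-deficient BMDMs. In control BMDMs *Lgals3* was highest, *Lgals1* and *Lgals3bp* followed with overlapping values, and *Lgals8* lay just above *Lgals9*, with *Lgals4* last. In CITED2-deficient BMDMs *Lgals3bp* stood between *Lgals3* and *Lgals1* without overlap, and *Lgals9* was above *Lgals8* in each library. The ratio of *Lgals9* to *Lgals8* was 0.934, 0.973 and 0.885 in control libraries and 1.94, 1.72 and 1.86 in CITED2-deficient libraries. Such a ratio is taken within a library, so a single scaling factor per library does not move it. The order and shares of different genes also depend on the transcript length given to each gene. The ratio of *Lgals9* to *Lgals1* went from 0.111 ± 0.00183 (SD, n = 3) to 0.415 ± 0.0307 (SD, n = 3), a 3.72-fold difference. *Lgals3bp* per *Lgals3* went from 0.137 ± 0.00814 (SD, n = 3) to 0.450 ± 0.0231 (SD, n = 3), a 3.30-fold difference.

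Of the summed FPKM of the 6 genes, *Lgals3* held 75.9% to 77.6% in control libraries and 61.5% to 63.4% in CITED2-deficient libraries. The share of *Lgals3bp* was 9.86% to 10.8% in control and 27.4% to 29.3% in CITED2-deficient libraries. *Lgals1* held 10.2% to 10.9% in control and 5.46% to 6.33% in CITED2-deficient libraries. The sum itself was 5074, 5325 and 5172 FPKM in control and 6949, 6811 and 7241 FPKM in CITED2-deficient libraries.

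**Figure D3:**
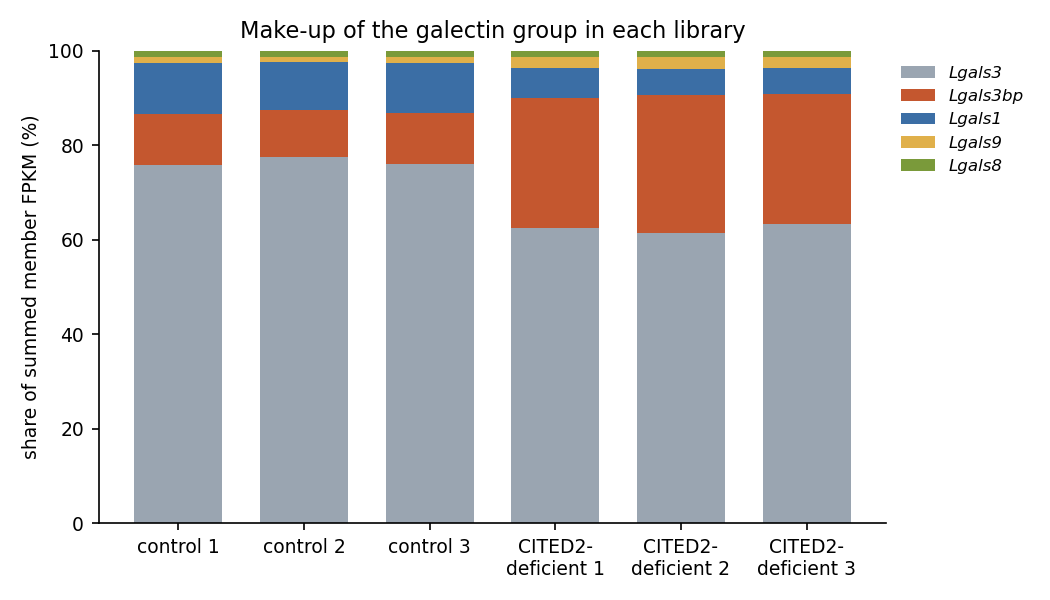
Share of the summed FPKM of the group held by each gene, in percent, with 1 bar per library. *Lgals3bp* takes 9.86% to 10.8% in control and 27.4% to 29.3% in CITED2-deficient libraries, and *Lgals4*, whose level is too low to be seen, is not drawn.

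For each tested gene, the genes with the most similar pattern were taken as those at the smallest Euclidean distance over the 6 libraries, in log2(FPKM + 1) centred on each gene's mean. For *Lgals3bp* these were *Znfx1*, *Dhx58* and *Slc28a2*, at distances of 0.065, 0.143 and 0.144. For *Lgals9* they were *Rpl29*, *Sp100* and *mt-Rnr1*, at 0.047, 0.097 and 0.114, of which *Rpl29* has near-identical copies in the genome and *mt-Rnr1* is ribosomal RNA, a class the library preparation removes. For *Lgals8* they were *Zfp605*, *Clcn7* and *Morc3*, at 0.033, 0.061 and 0.066. *Lgals1* was nearest to *Vps9d1*, *Rsu1* and *Dctpp1*, at 0.062, 0.072 and 0.073, and *Lgals3* to *Cyba*, *Rraga* and *Mrpl1*, at 0.019, 0.028 and 0.041. Within a distance of 0.2 lay 17 genes for *Lgals3bp* and 16 for *Lgals9*, against 213 for *Lgals8*, 441 for *Lgals1* and 899 for *Lgals3*.

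Of the other galectin genes, *Lgalsl*, which encodes a galectin-like protein, passed the filter and was not called, at 45, 33 and 42 fragments in control and 80, 50 and 62 in the deeper CITED2-deficient libraries (log2 difference 0.16, SE 0.13, limma adjusted p = 0.358). *Lgals2* had at most 1 fragment per library. *Lgals12* had 4, 6 and 0 fragments in control libraries and 0 in each CITED2-deficient library. *Lgals6*, *Lgals7* and *Grifin* were not analysed here.

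Galectins bind N-glycans more strongly as these are branched and extended. Enzymes that trim, branch, extend or cap the glycans that galectins bind were called in both directions. Of 14 such enzymes 13 were tested, of which 5 were higher, 3 were lower and 5 were not called. Their median was 0.04 on the log2 scale. Of all tested genes 51.3% were called, 16.7% higher and 34.6% lower. After median-ratio scaling 7 of the enzymes were higher and 2 lower, beside 23.1% and 21.3% of all tested genes. *Man2a2*, a Golgi mannosidase that trims N-glycans before branching, fell from 80.3 to 10.3 FPKM (log2 difference -2.85, limma adjusted p = 5.84e-10). *St6gal1*, which caps galactose with the α2,6-linked sialic acid that galectin-1 does not bind, fell from 96.5 to 51.6 FPKM (log2 difference -0.89, limma adjusted p = 2.17e-07). *Mgat5*, whose branch is extended into poly-N-acetyllactosamine, a preferred galectin ligand, rose from 28.3 to 42.3 FPKM (log2 difference 0.56, limma adjusted p = 9.62e-06). *Gcnt2*, which branches such chains, was low in both groups, at 0.822 to 0.993 FPKM in control and 2.11 to 2.47 FPKM in CITED2-deficient BMDMs, and was called higher (log2 difference 0.79, limma adjusted p = 0.000571).

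All 15 genes listed for glycoproteins that galectins bind passed the filter and were called, 11 higher and 4 lower, with a median of 0.24. Of all tested genes 16.7% were called higher and 34.6% lower. After median-ratio scaling 11 of the 15 were higher and 2 lower, beside 23.1% and 21.3% of all tested genes. *Fn1*, the matrix protein fibronectin, had the largest increase, at 16.0, 14.5 and 16.2 FPKM in control and 79.3, 58.9 and 55.8 FPKM in CITED2-deficient BMDMs, with the highest value in the library with the most fibroblast marker RNA. *Spn*, the sialomucin CD43, rose from 5.68 to 14.6 FPKM. *Itgam*, the integrin subunit CD11b, fell from 89.7 to 50.9 FPKM, and *Mertk*, a receptor for apoptotic cells, fell by 0.26 on the log2 scale.

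Genes of the response to damaged lysosomes, in which galectins 3 and 8 act, showed smaller differences than *Lgals3bp* or *Lgals9*. Of 12 such genes 11 were tested, of which 2 were higher, 4 were lower and 5 were not called, with a median of -0.06. These counts are close to the shares of all tested genes, 16.7% higher and 34.6% lower. *Chmp4b*, a membrane repair subunit of the ESCRT machinery, rose from 189 to 266 FPKM, and *Sqstm1*, the autophagy receptor p62, rose from 584 to 715 FPKM. *Ulk1*, a kinase that starts autophagy, fell by 0.47 on the log2 scale, and *Map1lc3b*, which encodes the autophagosome protein LC3B, fell by 0.42. *Calcoco2*, the autophagy receptor that galectin-8 recruits, was not analysed here.

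**Figure D4:**
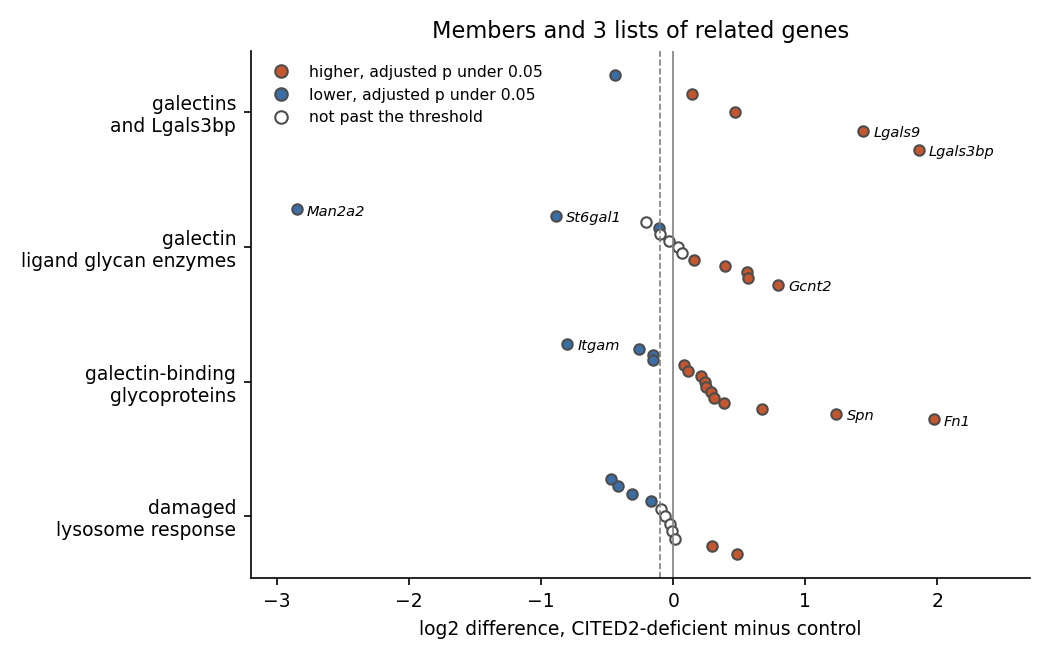
Log2 difference, CITED2-deficient minus control, of each tested gene of the galectin group and of the 3 lists, with filled points past the threshold (orange higher, blue lower) and open points not past it. *Man2a2* at -2.85 and *Fn1* at 1.97 mark the ends, and the dashed line is the median of all tested genes at -0.10.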

How the data were processed

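Total RNA of resting BMDMs was sequenced in 6 libraries, 3 per genotype, grouped by the labels. The authors removed ribosomal RNA, made stranded libraries, mapped reads to mm10 with STAR and deposited one FPKM value per gene and library. The methods of the study name Cuffdiff with a GENCODE annotation for these values, but most equal whole fragments over the mean transcript length, so the tool that counted them is uncertain. The sources used here name no version of these tools. The 6 genes and the lists of related genes were chosen with earlier results of these data known.

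FPKM were taken as log2(FPKM + 1) for the 11687 genes with a mean of at least 1 FPKM. They were compared with limma 3.58.1 (variance trend, Benjamini-Hochberg adjustment over these genes, threshold 0.05) in R 4.3.3. The procedure was also run on simulated data in which few genes changed and all shared the same spread beyond counting error. Those settings differ from these data, so the simulation does not show how the fit performs on them. FPKM were used because the test the study used needs alignments. Fragments were recovered with GENCODE vM21 mean transcript lengths and were whole, within 0.02, in all libraries for 96.1% of 22239 matched genes, and limma-voom on them called 5858 of 11061 genes, 5 of the 6 described among them. Counting error is the precision that depth gives, and replicates differed by more than it. The design names 3 mice, but no label ties a library to a mouse, so p-values measure the spread between these libraries. Members of the other lists were named where they had the 2 largest called differences in each direction, and 3 nearest genes were named for each tested member. *Lyz2* and *Lyz1* were named after their values were seen. Alternatives were other pseudocounts, filters and scalings, no variance trend, the replicate number as a block and leaving out each library. Promoters are RefSeq sequences, matched by symbol for 5 of 6 genes.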

Additional observations from a re-analysis of the deposited data

How the results depend on the processing

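The calls of *Lgals3bp*, *Lgals9*, *Lgals8* and *Lgals1* kept their direction and stayed past the threshold under every alternative run, with log2 differences of 1.84 to 1.96, 1.42 to 1.56, 0.43 to 0.57 and -0.50 to -0.34. *Lgals3* kept its direction, from 0.02 to 0.24, but its call was also lost without a filter (limma adjusted p = 0.127) and without the variance trend (limma adjusted p = 0.0729). The cause was not tested. *Lgals4* was called in the fit without a filter, so that 5 of the 6 genes were called there too, and 4 to 5 in all alternatives. Of all genes, 4986 of 8712 were called with a mean of at least 5 FPKM and 5821 of 22248 without a filter. The other alternatives on FPKM called 5186 to 5982 of 11687, and voom on recovered fragments called 5135 to 5858 of 11061. Same-numbered libraries had correlations of 0.014, 0.0078 and 0.040 in their deviations from the group means, so no shared deviation was seen. Whether samples were paired is not stated in the labels, and these values cannot decide it. With the replicate number as a block 5708 genes and 5 of the 6 were called. The called enzymes numbered 7 to 9, the glycoproteins 13 to 15 and the lysosome genes 5 to 6. Voom on recovered fragments, alone and with median-ratio scaling, was chosen after seeing the data. Depth limits *Lgals4*, which rests on 77 fragments in control and 20 in CITED2-deficient libraries.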
